A study of Mus musculus with 6 samples.

Results

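The migratory line M1 was compared with its parent BL185, a line of mouse hepatocellular carcinoma cells, on 4 of the series' 6 Affymetrix arrays. All 18193 genes that could be represented by a probe set naming a single gene entered the comparison, and none was chosen by its value. M1 and the other selected line, I1, are cells recovered from BL185 for their capacity to migrate, and their sample titles call each a subclone line. Each line has 2 arrays. BL185, M1 and I1 cells were kept in the same DMEM medium with 10% serum and extracted with Trizol, and no treatment distinguished them when RNA was taken. An unselected subclone of BL185 was not analysed here, so selection and subcloning cannot be told apart. Whether a line's arrays hold RNA of separate cultures is not stated in the labels. The p-values then measure only the spread between arrays of a line, pooled over the lines, which may be technical. Since each array reads the pooled RNA of a culture, fewer cells of a kind and less RNA per cell cannot be told apart.

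Migration draws on several gene programmes at once. Cells that leave an epithelial sheet commonly alter their matrix, adhesion and cytoskeletal genes, while Wnt, TGF-beta and chemokine signals set direction and identity. Growth is a separate programme: genes for DNA synthesis are switched on as cells leave G1 under the E2F factors, and genes for mitosis follow in G2 under the B-MYB and FOXM1 factors. The integrated stress response is another, in which a block on translation raises the transcription factor ATF4, which with its partners induces amino acid transporters, amino acid synthesis enzymes and tRNA synthetases.

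The M1 arrays were not alike, and every value below is therefore given for each of them. Across all probe sets they correlated at r = 0.910, against 0.997 for the BL185 pair and 0.994 for the I1 pair. M1 replicate 2 correlated more closely with the I1 arrays (0.979 and 0.983) and the BL185 arrays (0.968 and 0.967) than with M1 replicate 1. M1 replicate 1 correlated at 0.948 and 0.943 with the I1 arrays and at 0.877 and 0.878 with the BL185 arrays. The M1 arrays were thus not each other's nearest. M1 replicate 1 had a compressed signal range, with an SD of 1.62 log2 units over probe sets against 1.94 to 1.97 on M1 replicate 2 and the BL185 arrays. Genes in the top decile of parent signal, at 12.17 or more, lay a median of 0.87 below BL185 on M1 replicate 1 and 0.09 below it on M1 replicate 2. To set this aside, the smoothed trend of the difference against signal was subtracted on each M1 array, and the result is called the level-corrected difference. After it those medians were −0.21 and −0.13. The 18S ribosomal RNA control read 12.50 on M1 replicate 1, 10.68 on M1 replicate 2 and 10.11 and 10.14 in BL185. The 3′ minus 5′ signal of Actb, which rises as RNA is degraded, was 1.43 and 1.24 in M1 and 1.08 and 0.88 in BL185. On the I1 arrays the 18S control read 11.27 and 11.51, and the Actb measure was 1.47 and 1.43. Both measures were thus higher in M1 and in I1 than in BL185. Their part in the differences given here, also those that M1 shares with I1, was not tested.

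**Figure D1:**
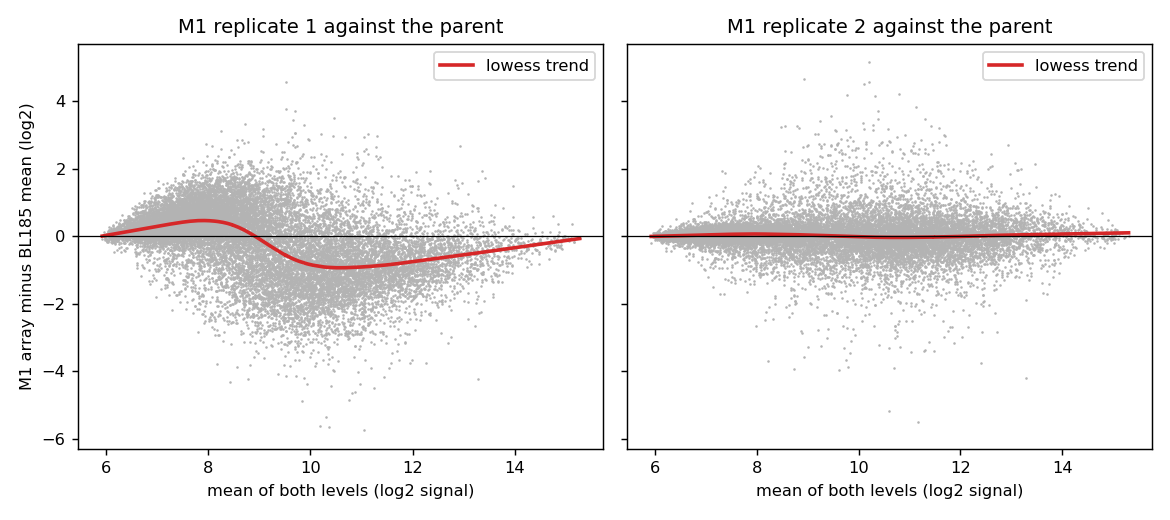
Difference of each M1 array from the BL185 mean (log2, vertical axis) against the mean of both signals (log2, horizontal axis) for 18193 genes, each a grey point, with the lowess trend that was subtracted in red. The trend on M1 replicate 1 runs above 0 at low signal and below 0 at middle and high signal, while that on M1 replicate 2 stays near 0.

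Values of a pair of arrays are given below with replicate 1 before replicate 2. A gene is called when the adjusted p (limma over all 6 arrays, Benjamini-Hochberg) is below 0.05, and rose or fell is said only of called genes. By this test 50 genes rose (0.275% of those tested) and 110 fell (0.605%), together 160 (0.879%). The fit pools the spread over lines, although the between-replicate SD was 0.65 in M1, 0.10 in BL185 and 0.16 in I1. Its p-values are thus no measure of the spread of M1 alone. A fit of only the M1 and BL185 arrays called 0 genes. On all 160 the M1 arrays did not overlap those of the parent and agreed in direction after level correction, and the smallest change among them was 2.48-fold. A second measure, which is a description with no test, counts genes past 2-fold, or 1 log2 unit, on both M1 arrays after level correction. It took in 368 genes above the parent (2.02%) and 485 below it (2.67%), together 853 (4.69%), including 149 of the 160. These shares of 2.02% above and 2.67% below are the base for every later count of list members past 2-fold. Over the whole table the M1 arrays agreed in direction for 11522 genes (63.3%, and 63.6% before level correction), 5783 above the parent (31.8%) and 5739 below it (31.5%), and disagreed for 6671. Later counts of list members that agreed are to be read against 31.8% and 31.5%. On M1 replicate 2 alone 692 genes (3.8%) lay past 2-fold above and 595 (3.27%) below.

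The count of calls depended on single arrays and on scaling. It was 4369 (24.0%) without M1 replicate 1, 12879 without M1 replicate 2, and 0 without any of the BL185 or I1 arrays. Cyclic loess, which removes level-dependent shifts between arrays before the test, gave 1820 calls (10.0%), with 838 higher (4.61%) and 982 lower (5.4%). Later counts of list members called after cyclic loess are to be read against 4.61% and 5.4%. Of the 160, 153 were called in the same direction there. Of the 853 past 2-fold on both arrays, 806 were called there, a count in which direction was not compared. Rises made up 31.2% of the calls on the deposited values, 46.0% with cyclic loess and 52.6% with quantile normalization, so the split between rises and falls changed with the scaling.

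**Figure D2:**
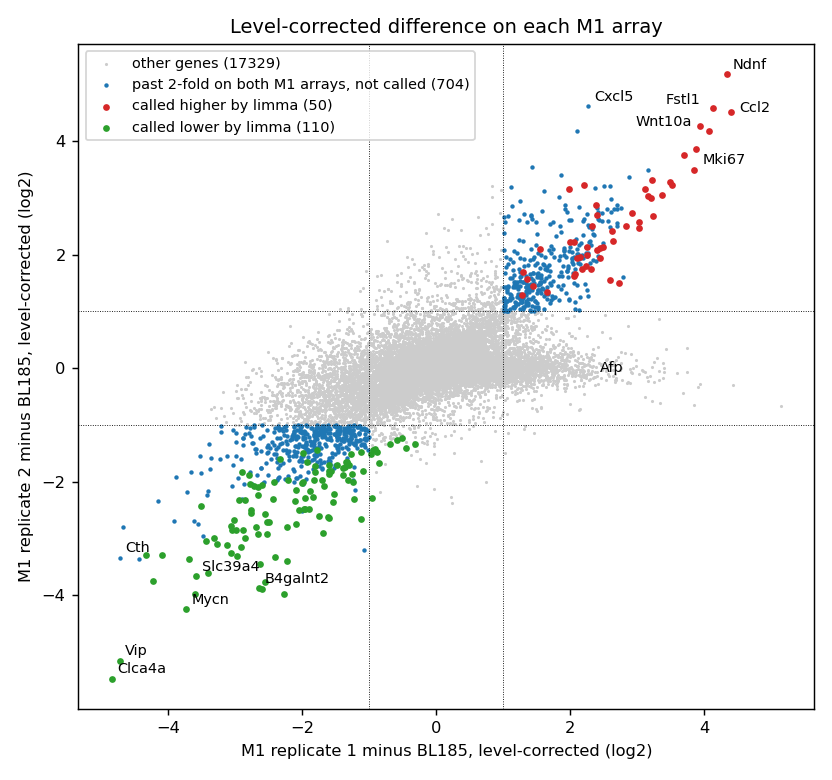
Level-corrected difference from BL185 on M1 replicate 1 (horizontal, log2) against that on M1 replicate 2 (vertical, log2) for 18193 genes. Dotted lines mark 2-fold, red points are the 50 genes called higher, green points the 110 called lower, and blue points the 704 others past 2-fold on both arrays. Named genes such as Ndnf and Clca4a lie at the ends of the diagonal, and Afp lies far out on replicate 1 only.

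The 12 largest rises held secreted and matrix proteins, genes of cell division, a glycosyltransferase and a vesicle protein relative. Ndnf, a secreted neurotrophic factor, read 7.64 and 7.63 in BL185 and 11.41 and 12.78 in M1, a log2 change of 4.46 (SE 0.51; adjusted p = 0.0374, limma). Ccl2, the chemokine that draws monocytes, went from 7.98 and 7.73 to 11.55 and 12.35 (adjusted p = 0.0184, limma). Fstl1, which encodes a secreted follistatin-like glycoprotein, went from 8.05 and 7.81 to 11.39 and 12.49. Gxylt2, a xylosyltransferase that modifies Notch, read 8.35 and 8.14 in the parent and 11.52 and 12.38 in M1. The Wnt ligand gene Wnt10a read 8.79 and 8.58 in BL185 and 11.72 and 12.90 in M1. Col5a1, a chain of fibrillar collagen V, read 7.96 and 7.97 in BL185 and 10.69 and 11.12 in M1. Vat1l, a relative of the vesicle amine transport protein gene, read 7.30 and 7.04 in BL185 and 9.72 and 10.43 in M1. In each of these the lower M1 array was replicate 1, and it was still more than 2 log2 units above both parent arrays. The parent values of Ndnf, Ccl2, Fstl1, Gxylt2, Col5a1 and Vat1l lay close to or below the array medians of 7.87 and 7.91, where signal and background merge, so the sizes of these rises are not exact.

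The 12 largest rises also held 5 genes of cell division. The proliferation antigen gene Mki67 read 9.28 and 9.15 in BL185 and 12.15 and 13.03 in M1, with level-corrected differences of 3.87 and 3.85. Cdca3, which promotes entry into mitosis, read 8.33 and 8.73 in BL185 and 11.40 and 12.24 in M1. Pclaf, which binds the replication clamp PCNA, read 9.67 and 9.49 in BL185 and 12.52 and 13.04 in M1. All 3 had M1 arrays far above both parent arrays. Tk1, the thymidine kinase that salvages thymidine for DNA synthesis, read 9.83 and 9.76 in BL185 and 12.38 and 13.04 in M1. Birc5, or survivin, a subunit of the chromosomal passenger complex, read 10.17 and 9.79 in BL185 and 12.61 and 13.18 in M1. Their adjusted p lay between 0.0168 (Pclaf) and 0.0288 (Cdca3) by limma.

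The 12 largest falls spanned log2 changes from −5.63 to −3.64 and held a channel regulator, a neuropeptide, transcription factors and an EGF receptor ligand. Clca4a, of the calcium-activated chloride channel regulator family, read 13.87 and 13.98 in BL185 and 8.17 and 8.42 in M1, a log2 change of −5.63 (SE 0.21; adjusted p = 0.0076, limma). Vip, the gene of vasoactive intestinal peptide, read 13.22 and 13.18 in BL185 and 7.54 and 8.01 in M1 (log2 change −5.42, SE 0.23). Mycn, a MYC family transcription factor amplified in some embryonal tumours, read 15.36 and 15.43 in BL185 and 11.16 and 11.19 in M1, and the M1 arrays differed from each other by far less than the parent differed from either. The parent values of Mycn were the highest on those arrays, and 1 of its 2 other probe sets moved the opposite way at an unadjusted p below 0.05, so its size is uncertain. Ereg, an EGF receptor ligand, read 12.27 and 12.26 in BL185 and 7.39 and 8.94 in M1. Dynap, a membrane protein that binds dynactin, read 13.13 and 13.22 in BL185 and 8.56 and 9.79 in M1. The zinc importer gene Slc39a4 read 11.56 and 11.62 in BL185 and 7.44 and 7.92 in M1. Aldh1a3, which makes retinoic acid from retinaldehyde, read 10.72 and 10.66 in BL185 and 7.10 and 6.76 in M1, and B4galnt2, which builds the Sda blood group glycan, read 12.71 and 12.58 in BL185 and 9.07 and 8.73 in M1. For both of these M1 replicate 2 was the lower array, so the array with the compressed range showed the smaller fall. Dmrta1, a DM domain transcription factor, read 10.07 and 10.07 in BL185 and 6.27 and 6.38 in M1. The carbonic anhydrase-related gene Car8 read 10.94 and 10.85 in BL185 and 6.67 and 7.63 in M1. Bcl2l15, of the BCL2 family, read 11.74 and 11.74 in BL185 and 8.29 and 7.85 in M1, and the drug efflux pump gene Abcb1a read 12.43 and 12.48 in BL185 and 8.46 and 9.17 in M1. In M1 the genes Clca4a, Vip, Slc39a4, Aldh1a3, Dmrta1, Car8 and Bcl2l15, and Ereg on replicate 1, were near or below the array medians of 8.11 and 7.92, and their falls are not exact in size.

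**Figure D3:**
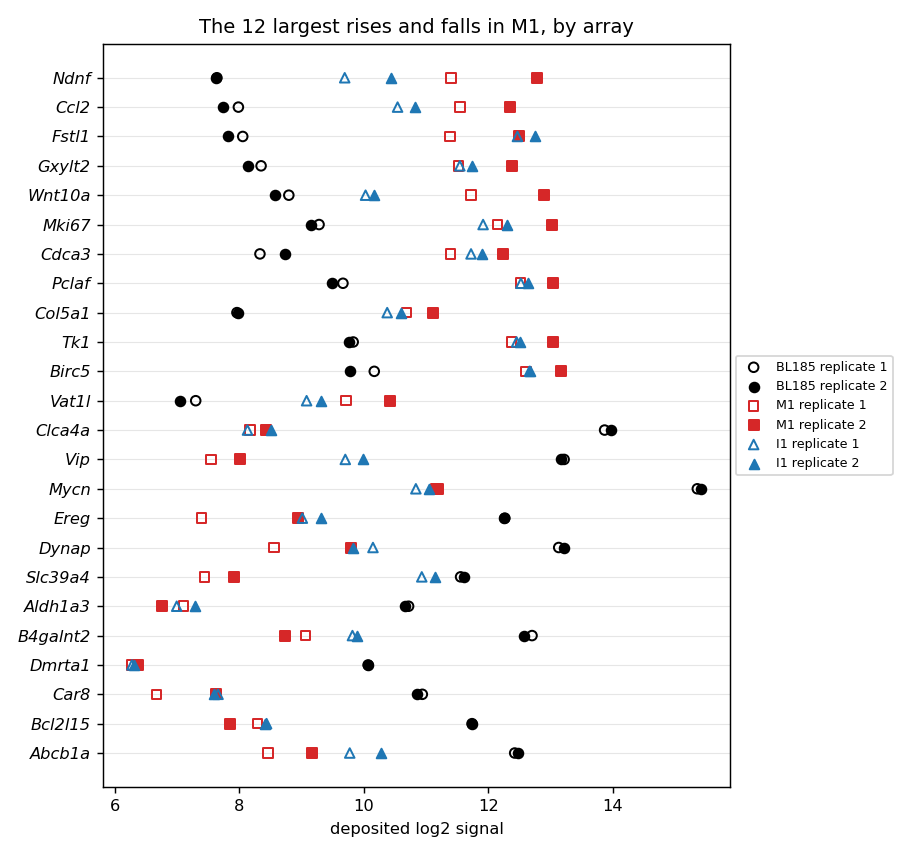
Deposited log2 signal (horizontal axis) of the 12 genes with the largest rises and the 12 with the largest falls in M1, on each array: black circles for BL185, red squares for M1, blue triangles for I1, open for replicate 1 and filled for replicate 2. The black and red symbols of every gene are separated, and the red pair is the widest for Ereg.

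Cell division was the programme in which the most genes stood above the parent. The gene lists used from here on were chosen with earlier results of these data known. Their counts are therefore descriptions and not tests of a programme. Of 35 measured genes of mitosis, the spindle and the kinetochore, 33 lay past 2-fold above BL185 on both M1 arrays and 0 below, against 2.02% of all genes above. Their median level-corrected difference was 2.02 on M1 replicate 1 and 2.48 on M1 replicate 2, where the medians over all genes were −0.01 and 0.00. The values ranged from 0.77 to 3.87 on replicate 1 and from 1.09 to 3.85 on replicate 2, and on replicate 2 alone all 35 lay past 2-fold. By limma 6 of the 35 rose (0.275% of all genes), and 35 were called higher after cyclic loess. As deposited, both M1 arrays lay above both parent arrays for all 35, against 26.2% of genes tested. Besides Mki67, Cdca3 and Birc5, Ccna2, the cyclin A gene of S phase and G2, rose from 10.18 and 10.17 to 12.46 and 13.17 (adjusted p = 0.0314, limma). The remaining called genes, named because there were only 2 and after their values were seen, were Cdc20, an activator of the anaphase-promoting complex (11.14 and 11.11 in BL185 and 13.01 and 13.35 in M1), and Kif23, a kinesin of cytokinesis (BL185 9.99 and 9.91, M1 12.06 and 12.39).

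The genes of DNA replication and nucleotide synthesis stood above the parent as well. Of 35 measured, 22 lay past 2-fold above on both M1 arrays (2.02% of all genes) and 0 below, with medians of 1.52 and 1.85, and 28 did so on replicate 2 alone (3.8%). The other 13 kept within 2-fold on at least 1 array, and the lowest value was −1.14 on replicate 1 and 0.49 on replicate 2. The former was that of Pola1, the catalytic subunit of DNA polymerase alpha (BL185 9.33 and 9.20, M1 8.26 and 10.60), which lay below the parent on one array and above it on the other and was named after its values were seen. Pclaf, Tk1 and Mcm5 rose by limma (0.275% of all genes), and 29 of the list were called higher after cyclic loess (4.61%). Mcm5, a subunit of the replicative helicase, read 10.22 and 10.20 in BL185 and 12.54 and 13.17 in M1. Uhrf1, which carries DNA methylation through replication, read 9.23 and 8.91 in BL185 and 10.67 and 11.85 in M1 and was not called (adjusted p = 0.103, limma).

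At the boundary of G1 the picture was mixed. Of 21 cyclins, CDKs, inhibitors and E2F genes, 5 lay past 2-fold above on both arrays (2.02% of all genes) and 0 below (2.67%). The medians were 0.21 and 0.57. The repressive E2F gene E2f8 rose from 7.96 and 7.99 to 9.63 and 10.10, and its paralog E2f7 read 8.01 and 7.88 in BL185 and 9.44 and 10.68 in M1 without being called. The CDK4 and CDK6 inhibitor gene Cdkn2c was also above the parent (10.15 and 9.99 against 11.73 and 12.52; adjusted p = 0.0609, limma), as was its relative Cdkn2d (level-corrected 1.34 and 1.36). Of 18 DNA repair genes 3 lay past 2-fold above on both arrays (2.02% of all genes), and 11 did so on replicate 2 alone (3.8%), a count in which the arrays differed more than for division genes. The 3 were the recombination helicase gene Rad54l (BL185 8.10 and 8.13, M1 9.35 and 10.79), the exonuclease gene Exo1 (BL185 7.80 and 8.06, M1 9.22 and 10.60) and the Fanconi anaemia gene Fanci (BL185 9.07 and 9.03, M1 9.81 and 10.50).

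Promoter letters are shown for genes of these programmes because known cell cycle elements recurred among them. The RefSeq windows (GRCm38.p6) run from 250 bases before to 50 bases after each gene start, and 14452 of the genes tested had one. The cell cycle homology element TTTGAA, bound in mitotic promoters by complexes with B-MYB and FOXM1, was present on either strand in 22 of the 29 mitosis genes with a window, against 15.66% of genes tested and 17.89% of all 32851 windows. It was in 4 of 30 replication genes. The E2F-like motif TTTNNCGC was in 13 of the 30 replication genes and 2 of the 29 mitosis genes, against 8.241% of genes tested and 5.169% of all windows. A match is a description of the letters and not a shown binding site. Mki67 (minus strand, chr7:135716415-135716534, positions −155 to −36 from the gene start) held 2 copies of TTTGAA. Mcm5 (plus strand, chr8:75109304-75109423, positions −205 to −86) held overlapping copies of TTTNNCGC on opposite strands, and Uhrf1 (plus strand, chr17:56303217-56303336, positions −120 to −1) held 1. The motif is in capitals in each, and every sequence reads 5′ to 3′ toward the gene.
Mki67: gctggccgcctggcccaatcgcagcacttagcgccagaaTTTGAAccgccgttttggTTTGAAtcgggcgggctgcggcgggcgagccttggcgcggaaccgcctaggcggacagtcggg
Mcm5: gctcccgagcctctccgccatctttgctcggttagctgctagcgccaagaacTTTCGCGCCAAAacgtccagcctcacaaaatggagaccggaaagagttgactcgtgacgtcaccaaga
Uhrf1: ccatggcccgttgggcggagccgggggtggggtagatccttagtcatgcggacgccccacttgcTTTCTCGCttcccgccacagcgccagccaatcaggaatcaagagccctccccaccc

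Genes of the integrated stress response and amino acid supply stood below the parent. Of 29 measured, 13 lay past 2-fold below on both M1 arrays and 0 above, against 2.67% of all genes below. The medians were −1.35 on replicate 1 and −1.06 on replicate 2, the arrays agreed on a lower level for 25 of the 29, and on replicate 2 alone 16 lay past 2-fold below. By limma 5 fell (0.605% of all genes), and 19 were called lower after cyclic loess. As deposited, both M1 arrays lay below both parent arrays for 26 of the 29, against 25.7% of genes tested. Ddit3, the transcription factor CHOP, read 13.21 and 13.14 in BL185 and 10.12 and 10.35 in M1 (adjusted p = 0.0121, limma). Ppp1r15a, or GADD34, the phosphatase subunit that lifts the translation block, read 13.45 and 13.46 in BL185 and 9.69 and 10.30 in M1. Nupr1, a small stress-induced chromatin protein, read 13.18 and 13.12 in BL185 and 9.24 and 10.46 in M1. In all 3 both M1 arrays lay more than 2 log2 units below either parent array. Cth, the enzyme that makes cysteine from cystathionine, had the lowest level-corrected values of the list (−4.72 and −3.34) but read 7.37 and 9.62 on the M1 arrays, and with that spread it was not called (adjusted p = 0.0717, limma). The other called members, named after their values were seen, were the pseudokinase gene Trib3 (BL185 13.33 and 13.36, M1 10.46 and 11.004) and the lipoprotein receptor gene Vldlr (BL185 12.55 and 12.56, M1 10.35 and 10.88).

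The cytosolic tRNA synthetases, which charge tRNAs with amino acids, were mostly within 2-fold of the parent on at least 1 array. Of 19 measured, 1 lay past 2-fold below on both arrays, Wars, which charges tryptophan (13.43 and 13.52 in BL185 and 11.17 and 11.91 in M1), and 0 were called by limma. Their medians were −0.63 and −0.49, the arrays agreed on a lower level for 15, and 9 were called lower after cyclic loess. The response element TGATGNAA, to which ATF4 binds with C/EBP partners, was in 9 of 27 stress response promoters and 5 of 12 tRNA synthetase promoters, against 3.238% of genes tested and 3.969% of all windows. Nupr1 (minus strand, chr7:126625517-126625636) and Atf3 (minus strand, chr1:191183380-191183499), both at positions −166 to −47, are shown with it in capitals in its reverse complement. Atf3, a stress-induced repressor, read 12.96 and 12.99 in BL185 and 10.00 and 11.16 in M1 and was not called (adjusted p = 0.0779, limma).
Nupr1: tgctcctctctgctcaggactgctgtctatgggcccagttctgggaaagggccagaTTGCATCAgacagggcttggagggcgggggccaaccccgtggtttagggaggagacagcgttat
Atf3: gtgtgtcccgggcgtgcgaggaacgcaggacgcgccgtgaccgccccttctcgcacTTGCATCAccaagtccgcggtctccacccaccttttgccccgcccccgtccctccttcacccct

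Other stress and nutrient lists had fewer calls. Of 28 hypoxia and glycolysis genes 8 lay past 2-fold below on both arrays and 0 above, with medians of −0.70 and −0.68 that were alike on the arrays. Ero1a, an oxidase of disulfide formation, read 14.18 and 14.30 in BL185 and 11.26 and 12.34 in M1. The angiogenic growth factor gene Vegfa read 12.76 and 12.97 in BL185 and 9.98 and 11.14 in M1. Neither passed the test (adjusted p = 0.0699 and 0.0921, limma), nor did Ankrd37 (BL185 11.63 and 11.47, M1 8.79 and 9.89) or Ndrg1 (BL185 14.39 and 14.49, M1 12.15 and 13.02), both hypoxia-induced. The single called gene of the list was the aldolase gene Aldoc (BL185 12.82 and 12.84, M1 10.65 and 11.08), named after its values were seen. Of 21 chaperone and degradation genes of the endoplasmic reticulum 4 lay past 2-fold below on both arrays and 0 were called. They were the sensor genes Ern1 (BL185 12.55 and 12.44, M1 9.24 and 10.76) and Atf6 (BL185 12.25 and 12.21, M1 9.26 and 10.29), the co-chaperone gene Dnajb9 (BL185 12.63 and 12.63, M1 8.17 and 10.76) and the degradation adaptor gene Sel1l (BL185 13.33 and 13.26, M1 11.03 and 12.16). The chaperone list as a whole had medians of −0.16 and −0.07, near 0.

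Among 23 p53 targets 3 lay past 2-fold below (2.67% of all genes) and 1 above (2.02%) on both arrays, with 0 called. Gadd45a, a stress-induced growth arrest gene, read 12.89 and 13.07 in BL185 and 7.63 and 9.58 in M1, Trp53inp1 read 12.08 and 11.95 in BL185 and 8.18 and 10.04 in M1, and the BH3-only gene Pmaip1 read 11.23 and 10.97 in BL185 and 9.16 and 9.68 in M1. Phlda3, an inhibitor of AKT, was the gene above the parent (BL185 10.86 and 10.72, M1 11.80 and 12.23). Of 23 lysosomal genes 4 lay past 2-fold below and 1 above. Hexa, a hexosaminidase subunit (BL185 12.62 and 12.46, M1 9.51 and 10.50), Npc1, the cholesterol exporter (BL185 10.47 and 10.49, M1 8.17 and 8.82), the autophagy receptor gene Sqstm1 (BL185 14.40 and 14.52, M1 12.21 and 12.78) and the sialidase gene Neu1 (BL185 12.001 and 12.05, M1 9.63 and 10.97) were those below, and Gaa, the acid glucosidase (BL185 12.72 and 12.61, M1 11.21 and 11.32), was the called gene, though not after cyclic loess. Among 22 antioxidant genes the heme oxygenase gene Hmox1 lay below (BL185 12.24 and 12.04, M1 9.22 and 10.07) and the glutathione reductase gene Gsr above (BL185 11.47 and 11.49, M1 12.01 and 12.91).

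Housekeeping groups were close to the parent once level was corrected. Of 22 cytosolic ribosomal protein genes, 25 of ribosome biogenesis, 28 of the respiratory chain, 28 of the proteasome and 21 of cholesterol synthesis, 0 lay past 2-fold on both arrays and 0 were called. Their medians lay between −0.12 and 0.18 on replicate 1 and between −0.10 and 0.25 on replicate 2. As deposited, the medians ran from −1.01 (ribosome biogenesis) to −0.23 (ribosomal proteins) on replicate 1 and from −0.01 to 0.26 on replicate 2. The subtracted trend was fitted with these genes included, so medians near 0 may follow in part from the correction. Of 23 fatty acid genes the lipoprotein lipase gene Lpl fell (BL185 11.06 and 10.99, M1 9.05 and 8.37), the acyl-CoA synthetase gene Acsl4 lay below without a call (BL185 12.65 and 12.57, M1 9.35 and 11.26), and Fabp5, a fatty acid carrier, lay above (BL185 11.75 and 11.38, M1 13.10 and 13.61).

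The MYC family stood below the parent, in contrast to the division genes. Of 13 genes of the MYC and MAX network 4 lay past 2-fold below on both arrays (2.67% of all genes) and 0 above (2.02%), with medians of −0.92 and −0.76. Besides Mycn these were Myc itself (13.18 and 13.44 in BL185 and 10.12 and 11.56 in M1), the MAX partner gene Mga (BL185 9.16 and 9.15, M1 8.10 and 8.11) and the antagonist gene Mxd4 (BL185 9.87 and 9.67, M1 8.12 and 8.77), and only Mycn was called. Of 28 AP-1 and immediate early genes 4 lay below and 1 above. They included Myc, Atf3, the Krüppel-like factor gene Klf4 (BL185 12.85 and 12.85, M1 10.01 and 11.46) and the GTPase gene Gem (BL185 9.09 and 8.69, M1 7.47 and 7.51), and the orphan receptor gene Nr4a1 was the called one (BL185 11.62 and 11.61, M1 10.18 and 10.35). That last fall was −0.51 on replicate 1 after level correction, and Nr4a1 was not called after cyclic loess.

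Signalling genes changed in single members more than as lists. In the Wnt list of 42 genes 4 lay past 2-fold above on both arrays (2.02% of all genes) and 0 below (2.67%). The medians were 0.22 and 0.16. The ligand gene Wnt4 rose beside Wnt10a, from 8.65 and 8.61 to 11.07 and 11.91. Axin2, a target and brake of beta-catenin, rose from 8.38 and 8.51 to 10.37 and 11.12 (adjusted p = 0.0466, limma), and the receptor gene Fzd2 read 9.95 and 9.82 in BL185 and 10.28 and 11.09 in M1 with no call. Among 37 TGF-beta, activin and BMP genes 7 lay above and 0 below. The ligand gene Tgfb3 rose beside Fstl1, from 8.51 and 8.40 to 10.13 and 10.67. The BMP targets Id2 (BL185 11.20 and 11.13, M1 12.56 and 13.09) and Id3 (BL185 9.92 and 9.62, M1 11.53 and 12.28), inhibitors of basic helix-loop-helix factors, stood above the parent on both arrays with an adjusted p of 0.0565 and 0.0571 by limma, short of the threshold.

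In the Notch list of 24, 2 lay past 2-fold above (2.02% of all genes) and 3 below (2.67%). Gxylt2 was the gene that rose, and Sox9, a ductal and progenitor transcription factor, the gene that fell (11.42 and 11.48 in BL185 and 9.13 and 9.65 in M1). The ligand gene Jag1 (BL185 13.49 and 13.16, M1 9.87 and 11.57) and the nuclear effector gene Rbpj (BL185 12.11 and 12.10, M1 9.30 and 11.02) lay below without a call. Of 24 EGF receptor ligands and MAPK feedback genes 4 lay below on both arrays and 0 above. Beside Ereg these were the ligand gene Btc (BL185 11.75 and 11.82, M1 7.65 and 9.51), the ERK-induced factor gene Etv5 (BL185 9.99 and 9.52, M1 7.71 and 8.33) and the ERK phosphatase gene Dusp4 (BL185 12.65 and 12.54, M1 9.75 and 11.25). The list median was −0.30 on replicate 1 and near 0 on replicate 2. Of 34 receptor tyrosine kinases and ligands, Pdgfa (BL185 10.49 and 9.97, M1 11.001 and 11.38), Pdgfb (BL185 9.77 and 9.83, M1 10.47 and 11.27) and Igf1 (BL185 9.49 and 9.28, M1 9.84 and 11.28) lay above, the ephrin gene Efna1 lay below (BL185 11.02 and 10.82, M1 7.98 and 9.38), and 0 were called.

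Inflammatory genes differed in single members. Of 34 chemokines, cytokines and receptors 3 lay past 2-fold above on both arrays (2.02% of all genes) and 0 below (2.67%). Beside Ccl2 these were the neutrophil chemokine gene Cxcl5 (BL185 6.62 and 6.59, M1 9.33 and 11.25), whose M1 arrays lay far apart, and the alarmin gene Il33 (BL185 11.13 and 10.93, M1 11.72 and 12.64). Of 31 interferon and antigen presentation genes 3 lay below (2.67% of all genes), Irf9 (BL185 9.44 and 9.37, M1 7.63 and 8.07), Oasl1 (BL185 11.27 and 11.30, M1 8.57 and 9.79) and the class I gene H2-K1 (BL185 13.96 and 13.90, M1 12.23 and 12.83), with 0 called and medians of −0.28 and −0.25.

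Some matrix and mesenchymal genes rose. Of 33 collagens, laminins and matrix proteins 5 lay past 2-fold above on both arrays (2.02% of all genes) and 1 below (2.67%), and 3 rose by limma (0.275%). Col6a2, a chain of microfibrillar collagen VI, rose from 9.50 and 9.32 to 11.84 and 12.41. Sparc, a collagen-binding matrix protein, rose from 11.32 and 11.44 to 13.31 and 13.81 (adjusted p = 0.0292, limma). The basement membrane linker gene Nid1 lay the other way (13.51 and 13.49 in BL185 and 8.99 and 10.81 in M1; adjusted p = 0.0743, limma). Of 27 genes of epithelial-mesenchymal transition 4 lay above and 0 below, with medians of 0.32 and 0.08. S100a4, a calcium-binding protein of motile cells, rose from 10.56 and 10.18 to 12.42 and 13.07, and the transcription factor gene Twist2 from 8.90 and 8.86 to 10.49 and 10.62. The N-cadherin gene Cdh2 read 10.80 and 10.50 in BL185 and 11.39 and 12.41 in M1 and was not called.

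The intermediate filament genes that separate epithelium from mesenchyme did not pass the test. The epithelial keratin genes Krt8 (14.94 and 14.96 in BL185 and 14.96 and 15.14 in M1) and Krt18 (BL185 14.87 and 14.88, M1 14.78 and 14.93) and the mesenchymal vimentin gene Vim (BL185 14.70 and 14.83, M1 14.66 and 14.97) were all near the top of the signal range in both lines, where differences are squeezed. Epcam, an epithelial adhesion gene, read 10.57 and 11.09 in BL185 and 11.28 and 11.15 in M1, and its other probe set moved the opposite way. Of 38 keratin and junction genes 2 lay past 2-fold above (2.02% of all genes), with 0 called. They were the stress keratin gene Krt6a (BL185 8.17 and 8.30, M1 9.63 and 10.93) and the plakoglobin gene Jup (BL185 11.47 and 11.47, M1 12.18 and 12.61).

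The motility lists were led by single genes. Of 38 actin and motility genes 3 lay past 2-fold above (2.02% of all genes) and 1 below (2.67%) on both arrays. The medians were 0.07 and 0.17. Capg, which caps actin filaments, fell from 13.03 and 12.88 to 8.92 and 9.80 (adjusted p = 0.0235, limma), with level-corrected differences of −3.12 and −3.12. The bundling protein gene Fscn1 (BL185 12.72 and 12.68, M1 13.62 and 13.99), the severing protein gene Gsn (BL185 10.64 and 10.54, M1 11.16 and 12.22) and the tropomyosin gene Tpm2 (BL185 9.94 and 9.56, M1 10.89 and 10.76) lay above without a call. Of 31 integrins and adhesion genes 1 lay past 2-fold below (2.67% of all genes) and 0 above (2.02%). It was Pvr, a nectin-like receptor (BL185 13.06 and 13.09, M1 10.79 and 11.57), and 2 others of its 7 probe sets moved the opposite way. Of 32 extracellular proteases and inhibitors 1 lay past 2-fold above (2.02% of all genes) and 3 below (2.67%). The metalloproteinase inhibitor gene Timp1 rose from 10.17 and 10.09 to 11.69 and 12.23. The metalloproteinase genes Mmp13 (BL185 13.14 and 13.21, M1 8.32 and 10.47), Mmp3 (BL185 8.83 and 8.71, M1 7.01 and 7.64) and Adamts1 (BL185 10.92 and 11.24, M1 8.27 and 9.92) lay below without a call. Among 32 axon guidance genes the semaphorin gene Sema4g fell (BL185 11.34 and 11.24, M1 9.51 and 9.58) but had level-corrected differences of −0.85 and −1.68 and was not called after cyclic loess, and the receptor gene Nrp1 stood above the parent (BL185 8.41 and 8.41, M1 10.69 and 11.74) with an adjusted p of 0.0503 by limma.

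Some genes of secretory epithelium fell, Clca4a with the largest change of all called genes. Of 32 measured 6 lay past 2-fold below on both arrays (2.67% of all genes) and 1 above (2.02%), and 4 fell by limma (0.605%), although the medians of 0.03 and −0.10 were near 0. The salivary carbonic anhydrase gene Car6 fell from 11.44 and 11.77 to 8.47 and 7.62 beside Clca4a and B4galnt2, as did Car2 (BL185 10.83 and 11.13, M1 9.04 and 9.15), named after its values were seen. The chloride channel gene Cftr read 10.56 and 10.47 in BL185 and 6.63 and 8.19 in M1 and was not called (adjusted p = 0.0746, limma). Of 19 progenitor and bile duct markers 3 lay below and 0 above. Prom1, the CD133 gene, fell from 11.19 and 11.05 to 7.99 and 8.40 beside Sox9. Of 25 zinc transporters and metallothioneins 3 lay below and 1 above. The importer genes Slc39a8 (BL185 10.50 and 10.25, M1 8.19 and 9.04) and Slc39a14 (BL185 11.95 and 12.06, M1 9.57 and 10.81) lay below without a call, and Slc39a10 (BL185 9.55 and 9.22, M1 10.34 and 11.91) above.

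Among 23 retinoic acid genes Aldh1a3 was the called member, while the retinol receptor gene Stra6 (BL185 8.60 and 8.59, M1 9.81 and 11.15) and the retinol dehydrogenase gene Rdh10 (BL185 12.12 and 12.17, M1 12.81 and 13.45) lay above. Of 32 neuropeptide and neuronal genes, Ndnf rose and Vip fell, the tubulin gene Tubb4a lay above (BL185 9.39 and 9.57, M1 10.81 and 10.93) and the microtubule destabiliser gene Stmn2 below (BL185 9.64 and 9.46, M1 7.76 and 7.10). Among 13 S100 genes, S100g (BL185 8.22 and 7.70, M1 9.94 and 10.58) and S100a13 (BL185 10.66 and 10.43, M1 11.16 and 11.99) lay above beside S100a4, and S100a14 lay below (BL185 10.86 and 10.84, M1 8.41 and 9.28). Of 26 YAP and TEAD targets 4 lay above and 1 below, of which Birc5 rose, and Tead2 (BL185 9.98 and 9.92, M1 10.74 and 11.36), Arhgef17 (BL185 9.45 and 9.42, M1 10.01 and 10.64) and Crim1 (BL185 12.52 and 12.65, M1 10.62 and 11.22) were not called. Of 19 BCL2 family genes 3 lay below, Bcl2l15, Pmaip1 and Bcl2l2 (BL185 11.03 and 11.14, M1 8.86 and 9.95). Of 20 imprinted growth genes the placental growth restrictor Phlda2 fell (BL185 10.78 and 10.77, M1 9.32 and 9.49), with level-corrected differences of −0.59 and −1.26 that were within 2-fold on replicate 1, and it was not called after cyclic loess.

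**Figure D4:**
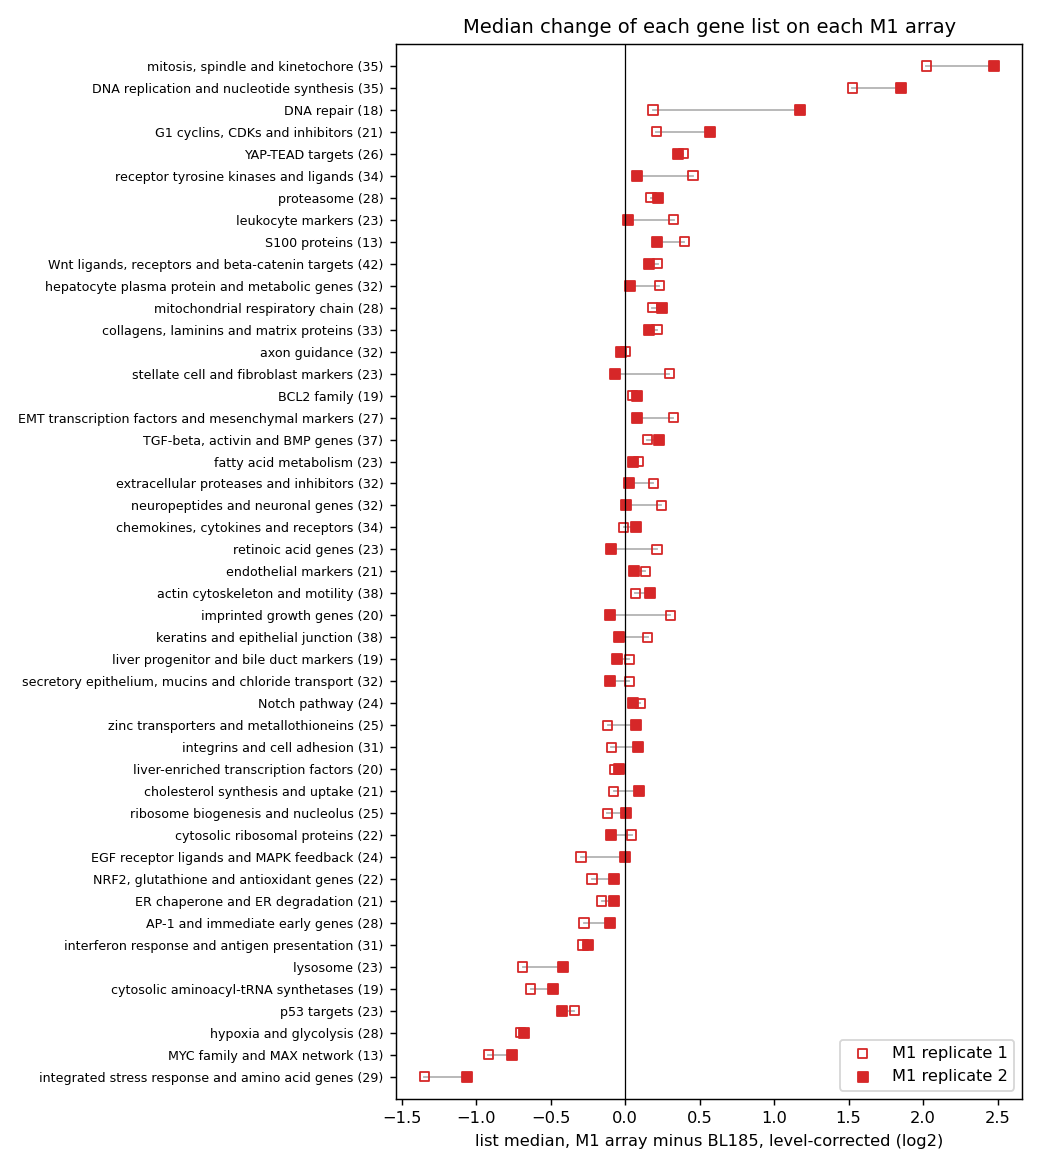
Median level-corrected difference from BL185 (log2, horizontal axis) of the 47 gene lists, with the number of measured genes in brackets, on M1 replicate 1 (open squares) and M1 replicate 2 (filled squares). Mitosis (2.02 and 2.48) and replication genes (1.52 and 1.85) lie farthest to the right, and stress response genes (−1.35 and −1.06) farthest to the left.

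The hepatocyte identity named in the labels rested on part of its markers in both lines. Of 32 hepatocyte plasma protein and metabolic genes, 21 were at or below the array median on both BL185 arrays, 15 on M1 replicate 1 and 21 on M1 replicate 2. Alb, the albumin gene, read 7.60 and 7.53 in BL185 and 8.43 and 7.66 in M1, near background. The fetal liver gene Afp read 7.39 and 7.14 in BL185 but 9.89 and 7.15 in M1, so that a signal above background appeared on M1 replicate 1 alone. Hnf4a, the central hepatocyte transcription factor, was well above background with 12.83 and 12.90 in BL185 and 11.94 and 12.76 in M1, and 0 of 20 liver-enriched transcription factors were called or lay past 2-fold. In the hepatocyte list the fibrinogen chain gene Fgb fell (BL185 9.51 and 9.46, M1 7.47 and 7.93) and the hemopexin gene Hpx lay above (BL185 8.82 and 8.50, M1 9.74 and 11.21).

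Markers of other cell types were in part at background and in part well above it. The leukocyte gene Ptprc read 6.25 and 6.25 in BL185 and 7.17 and 6.27 in M1, the endothelial gene Pecam1 6.61 and 6.75 in BL185 and 7.76 and 6.80 in M1, and the fibroblast gene Dcn 7.99 and 8.12 in BL185 and 8.73 and 8.31 in M1. Of 21 endothelial markers 14 and 15 were at or below the array median in BL185 and 11 and 14 in M1, and of 23 stellate and fibroblast markers 13 and 13 in BL185 and 8 and 14 in M1, and in both lists 0 were called or lay past 2-fold. Of 23 leukocyte markers 11 and 10 were at or below it in BL185 and 9 and 13 in M1, and the macrophage gene Cd68 (BL185 10.74 and 10.56, M1 7.51 and 7.37) and the tetraspanin gene Cd53 (BL185 9.67 and 9.58, M1 8.08 and 7.86) fell. The highest signal in BL185 was 11.2 on both arrays among leukocyte markers, 10.2 and 10.3 among endothelial markers and 13.2 and 13.4 among fibroblast markers. The median signal of the endothelial list lay between 7.36 and 7.43 in BL185 and at 7.95 and 7.38 in M1, and that of the fibroblast list between 7.78 and 7.87 in BL185 and at 8.41 and 7.82 in M1. That of the leukocyte list was 8.05 on both BL185 arrays and 8.23 and 7.86 in M1. The shift toward higher deposited marker signal was thus on M1 replicate 1 and not on replicate 2. Dim genes in general read higher on replicate 1: the bottom decile of parent signal lay a median of 0.28 above BL185. After level correction that median was 0.09. The corrected list medians were 0.14 and 0.06 for endothelial, 0.30 and −0.07 for fibroblast and 0.33 and 0.02 for leukocyte markers.

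M1 was also set against I1, to ask which of its differences it did not share in size with the other selected line. Level-corrected I1 medians were 1.79 and 2.01 for mitosis, 1.07 and 1.17 for replication, −1.04 and −1.14 for stress response and −0.73 and −0.65 for MYC network genes. These lists thus lay on the same side of the parent in I1, while the hypoxia list median was near 0 (−0.04 and −0.09). Of the hypoxia genes named above, Ero1a (−1.28 and −1.24), Vegfa (−1.40 and −1.15) and Ndrg1 (−0.99 and −0.93) were nonetheless below the parent in I1. Ankrd37 was less so (−0.25 and −0.24). Fstl1 (12.47 and 12.76 in I1), Mki67 (11.92 and 12.31), Clca4a (8.13 and 8.51) and Mycn (10.84 and 11.04) were also far from the parent in I1. After level correction all of the 12 largest rises and 12 largest falls lay on the same side of the parent in I1. All but Slc39a4 (−0.33 and −0.28 in I1) were past 2-fold there on both arrays. As deposited, limma called 0 genes in I1 minus M1, with 409 at an unadjusted p below 0.05, and 52 after cyclic loess (0.286% of those tested), 43 higher in I1 (0.236%) and 9 lower (0.0495%). Leaving out M1 replicate 1 gave 3746 calls, 1309 of them higher in I1, and leaving out M1 replicate 2 gave 10365, 6567 of them higher in I1, so which direction held more calls depended on the M1 array used. The genes below are those with the smallest p as deposited or named above, and their tests are limma after cyclic loess. Pdpn, or podoplanin, a glycoprotein of motile cell fronts, read 8.32 and 8.16 on the parent arrays, 10.73 and 10.83 on the M1 arrays and 8.47 and 8.52 on those of I1, with I1 close to the parent (I1 minus M1 −2.36, adjusted p = 0.0229, limma). Wnt10a read 10.03 and 10.17 in I1, between the parent and M1 (−2.46, adjusted p = 0.0229, limma). The neural and progenitor transcription factor gene Sox11 read 8.28 and 8.15 on the parent arrays, 10.27 and 11.08 on the M1 arrays and 8.86 and 8.96 on those of I1, and the acetylcholine receptor subunit gene Chrna1 read 7.88 and 7.87, 9.89 and 10.12 and 8.46 and 8.69. Axin2 (9.49 and 9.44 in I1) and Ccl2 (10.54 and 10.82 in I1) were also higher in M1 than in I1, with adjusted p of 0.0469 and 0.0469 by limma.

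Other genes were lower in M1 than in I1. Stmn2 read 12.45 and 12.79 in I1, above the parent, while M1 lay below it (I1 minus M1 5.00, adjusted p = 0.0469, limma). Slc39a4 read 10.93 and 11.15 in I1, nearer the parent, against 7.44 and 7.92 in M1 (3.14, adjusted p = 0.0184, limma). Hpgd, which degrades prostaglandins, read 8.64 and 8.66 on the parent arrays, 7.20 and 7.23 on the M1 arrays and 9.95 and 10.41 on those of I1. Serpinb1a, an inhibitor of neutrophil proteases, read 11.27 and 11.37, 8.47 and 8.81 and 11.43 and 11.96, and its fall in M1 was called. Cyp4f14, a fatty acid hydroxylase gene, read 8.08 and 7.98, 7.96 and 7.78 and 10.33 and 10.65, with M1 near the parent and I1 above both. For Vip (9.70 and 9.99 in I1), Nupr1 (11.69 and 11.84), Capg (11.09 and 11.19), S100a14 (10.58 and 10.39) and Ankrd37 (10.98 and 11.15), I1 lay between M1 and the parent. Wfdc2, a secreted epithelial whey acidic protein, read 12.21 and 12.05 on the parent arrays, 9.89 and 10.12 on the M1 arrays and 12.50 and 12.45 on those of I1, and its difference between the lines was not called (adjusted p = 0.0955, limma). Nor was that of Spink4, a secreted protease inhibitor (8.90 and 8.98 in M1 and 8.03 and 8.05 in I1), or Foxj1, a regulator of motile cilia (8.31 and 8.65 and 7.38 and 7.51).

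**Figure D5:**
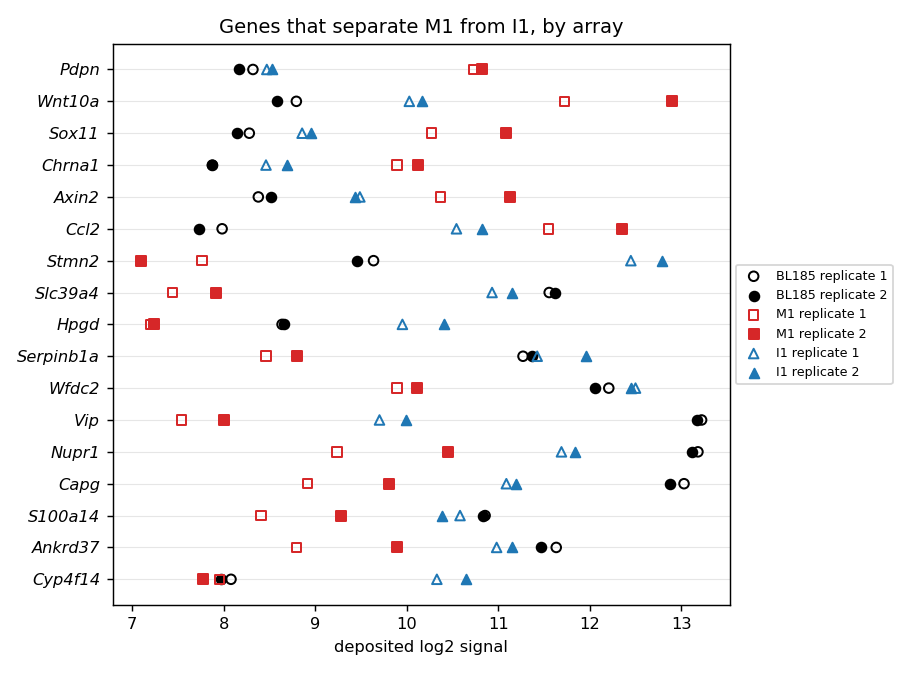
Deposited log2 signal (horizontal axis) of 17 genes on each array, with black circles for BL185, red squares for M1 and blue triangles for I1, open for replicate 1 and filled for replicate 2. In the upper 6 genes the red symbols lie to the right of the blue, and in the lower 11 to the left.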

How the data were processed

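The values analysed were the authors' deposited log2 signals, 1 per probe set and array, made with RMA and the affy package per the submitters' processing notes. Their versions and settings are not given. That they are log2 was read from their range, and the columns differed in distribution. The platform annotation gave a single gene for 34945 of the 45101 probe sets, several for 932 and none for 9160, beside 64 Affymetrix controls. Of a gene's probe sets, that with the highest average over the 6 arrays was kept, which left 18193 genes. No detection calls were used, and the number of arrays limits the precision.

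Groups came from the sample titles. limma 3.58.1 (R 4.3.3) estimated each line's mean from all 6 arrays together (3 residual and 2.27 prior degrees of freedom), so the spread is pooled over lines. Adjusted p is Benjamini-Hochberg within a contrast. Level correction subtracted a lowess trend (span 0.3, statsmodels 0.14.6, Python 3.11.15) of the difference against the mean signal. In data simulated for M1 minus BL185 with each line's own spread (18193 genes), 4.5% of true changes of 1 log2 unit were called, 50.7% of those of 2 and 84.8% of those of 4, with 7 false among 100 calls. The simulated noise was independent between genes and equal at every signal level. It left out the compression of M1 replicate 1, so these rates may not hold for the real arrays.

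The comparison, the 47 gene lists and the tests were chosen with earlier results of these data known. Named genes were the 12 largest called rises and falls, up to 4 genes per list with the largest level-corrected change among those called or past 2-fold, the 6 per direction with the smallest p in I1 minus M1, and 10 cell markers. Promoter windows came from a RefSeq table of assembly GRCm38.p6 and were matched by symbol. Alternatives were other scalings, centring, filters, probe set rules, variance settings, a replicate block and each array left out.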

Additional observations from a re-analysis of the deposited data

Results flagged for a closer look

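Differences between the selected lines drew attention in 16 genes, because I1 minus M1 passed limma after cyclic loess although no gene passed it on the values as deposited. Higher in M1 were Wnt10a (I1 minus M1 −2.46), Pdpn (−2.36), Sox11 (−1.87), Ccl2 (−1.49), Chrna1 (−1.45) and Axin2 (−1.43). Lower in M1 were Stmn2 (5.00), Slc39a4 (3.14), Hpgd (2.97), Serpinb1a (2.80), Cyp4f14 (2.61), Vip (1.84), Nupr1 (1.66), Capg (1.51), Ankrd37 (1.46) and S100a14 (1.43). These are log2 values of the fit after cyclic loess, with 2 arrays per line.

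Wfdc2 and Hnf4a drew attention because, as deposited, both M1 arrays lay below the parent and both I1 arrays above it. For Hnf4a M1 replicate 2 lay only just below the parent, and most of the difference was on M1 replicate 1. On that array genes in the top decile of parent signal, as Hnf4a was, lay a median of 0.87 below BL185. The difference between the lines was 2.47 for Wfdc2 and 0.82 for Hnf4a on the values as deposited, and neither passed the test (adjusted p = 0.0904 and 0.9999, limma). The 18S ribosomal RNA control, which belongs to no gene comparison, was 1.47 log2 units higher in the M1 mean than in the BL185 mean, and most of that lay on M1 replicate 1.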

How the results depend on the processing

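The 160 calls of M1 minus BL185 became 1820 after cyclic loess, 1170 after quantile normalization, 241 after median centring, 338 with probe sets averaged per gene, 312 with array weights and 5 at an adjusted p of 0.01. They became 0 in a fit of the compared lines' arrays only, and ranged from 0 to 12879 as single arrays were left out. Calls in I1 minus M1 were 52 after cyclic loess, 4 after quantile normalization, 1 among genes of mean log2 at least 8 and 2 with array weights, against 0 as deposited, and 0 to 10365 with single arrays left out. The 853 genes past 2-fold on both M1 arrays became 2584 at a change of 0.5 and 348 at 1.5, and ranged from 863 to 4044 with single arrays left out. Where a single M1 array remained, it was assumed to vary like the other lines. Without level correction 753 genes lay past 2-fold on both M1 arrays, 218 of them above the parent, against 853 and 368 with it. On M1 replicate 1 the deposited medians were 1.31 for mitosis, 0.88 for replication and −1.81 for stress response genes. After correction they were 2.02, 1.52 and −1.35. The counts above and below the parent thus depended on the correction.

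Whether the replicate numbers of the titles pair the arrays could not be decided. Deviations of same-numbered arrays correlated at −0.13 between BL185 and M1, 0.16 between BL185 and I1 and 0.37 between M1 and I1. With so few arrays per line, and the range of an M1 array compressed, these correlations can neither show nor exclude pairing. With the replicate number as a block, 38 genes were called in M1 minus BL185. Crossed numbers, added after the data were seen, gave 76.

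Named genes that changed sign were uncalled. With single arrays left out, Afp ranged from −0.12 to 2.63, Krt18 from −0.094 to 0.055 and Vim from −0.10 to 0.21. Krt18 turned to 0.072 under quantile normalization and Epcam to −0.66 with probe sets averaged, and Vim was −0.010 without BL185 replicate 1. The cause was not tested in any of these. The number of arrays and the nearness of dim genes to background limit every size.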

Other observations

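Further gene groups were described after their values were seen, so their counts are descriptions with no test of the group. Host genes of small nucleolar RNAs, whose introns carry the guides that modify ribosomal RNA, stood below BL185. Of 15 measured, 6 lay past 2-fold below on both M1 arrays and 0 above, with medians of −1.12 and −0.93, and 3 fell by limma. Snhg12 read 10.32 and 10.22 in BL185 and 7.44 and 7.46 in M1, with level-corrected differences of −2.89 and −2.84 that were nearly equal. Snhg16 read 12.20 and 12.19 in BL185 and 9.36 and 9.68 in M1, and Zfas1 read 13.53 and 13.50 in BL185 and 11.76 and 12.05 in M1 (adjusted p = 0.0382, limma). The growth arrest transcript Gas5 read 14.34 and 14.27 in BL185 and 11.86 and 12.91 in M1 and was not called. On M1 replicate 2 alone 7 of the 15 lay past 2-fold below and 1 above. The ribosomal protein and ribosome biogenesis lists had 0 genes past 2-fold on both arrays.

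Glycogen genes held a pair of large falls among 20 measured, of which 3 lay past 2-fold below on both arrays and 0 above. Ppp1r3b, which directs a phosphatase to glycogen synthase, fell from 12.20 and 12.27 to 8.46 and 9.21 (adjusted p = 0.0219, limma). Stbd1, which tethers glycogen to membranes, fell from 12.23 and 12.11 to 8.54 and 9.33 (adjusted p = 0.0235, limma). The branching enzyme gene Gbe1 lay below with no call (BL185 8.90 and 8.73, M1 6.85 and 7.74). Of 16 carbonic anhydrase genes the 3 that lay past 2-fold below, Car2, Car6 and Car8, were all called. Of 14 genes of the folliculin complex and the Rag GTPases, which regulate growth signalling at the lysosome, Flcn (BL185 12.19 and 12.04, M1 8.93 and 10.64), Fnip1 (BL185 11.36 and 11.45, M1 7.31 and 9.54) and Fnip2 (BL185 10.84 and 10.30, M1 7.79 and 9.20) lay past 2-fold below on both arrays with 0 called. In these the M1 arrays lay far apart, with replicate 1 the lower.

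Of 20 condensin and cohesin genes 6 lay past 2-fold above on both M1 arrays and 0 below, and 9 did so on replicate 2 alone. The condensin subunit genes Smc2 (BL185 10.23 and 10.08, M1 11.55 and 12.57) and Ncapd2 (BL185 9.17 and 8.94, M1 10.72 and 11.76) and the sororin gene Cdca5 (BL185 9.82 and 9.60, M1 11.47 and 12.47) were among them, and 0 of the 20 were called.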
